A study of Mus musculus with 12 samples.

Results

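The small nucleolar RNA genes measured in 2 layers of the mouse hippocampal fields CA2 and CA1 are described here. Members were the genes whose symbol begins with Snord, Snora or Scarna in the array's annotation, taken from features that carry a single symbol, with the feature of highest mean signal kept for each symbol. The rule gave 68 of 30142 genes, of which 44 are Snord, 18 are Snora and 6 are Scarna. Another 45 features list such a symbol together with other symbols and were not members.

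Small nucleolar RNAs guide chemical modification of other RNAs inside the nucleus. Snord genes encode C/D box RNAs, which direct 2′-O-methylation of ribosomal RNA, and Snora genes encode H/ACA box RNAs, which direct the change of uridine to pseudouridine. Scarna genes encode their relatives in Cajal bodies, nuclear bodies in which the small nuclear RNAs of the spliceosome are modified. Most are cut out of introns of a host gene, often one that encodes a ribosomal protein or a translation factor, and a few have their own promoter. In neurons the nucleus lies in the cell body, so the layers of the hippocampus separate the nuclei of pyramidal cells from most of their dendrites.

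The study compared gene expression in laser-captured tissue from 4 groups: the CA2 dendritic layer (stratum radiatum), the CA2 cell body layer (stratum pyramidale), and the same layers of CA1, with 3 arrays each. All 12 pieces came from male Amigo2-GFP C57BL/6J mice of 6 to 8 weeks from separate litters, and 3 mice each gave 1 piece of every kind. All 4 groups share the Amigo2-EGFP reporter, named for a CA2 marker gene, and the labels list no treatment. About 20 caps of 5 sections, each 8 µm thick, were pooled per piece, and 5 to 7 ng of total RNA was amplified for a microarray. The pieces were captured by position rather than by cell type, so the dendritic layer also holds glia, interneurons and vessels, each with nuclei of their own, beside pyramidal dendrites. In such bulk pieces fewer cells of a type and less RNA per cell cannot be told apart.

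Values are log2 signals that the authors normalized with RMA, and a difference of 1 is 2-fold. The medians over all features, named or not, lay between 5.68 and 5.88 on all 12 arrays. The medians over the genes tested lay between 6.42 and 6.61. The member medians lay between 6.00 and 6.44, below the median of the genes tested on every array. Markers of pyramidal neurons were lower in dendritic than in cell body pieces for 4 of 4 measured genes in each field. Their mean log2 level in CA2 was 8.38 to 8.57 on dendritic arrays and 10.05 to 10.16 on cell body arrays, and in CA1 it was 9.03 to 9.18 on dendritic arrays and 9.98 to 10.12 on cell body arrays. Markers of astrocytes (7 of 7), microglia (6 of 6), endothelium (5 of 5), oligodendrocytes (4 of 4), their precursors (2 of 2) and interneurons (5 of 5) were higher in the dendritic layer in both fields. In CA2 the 7 astrocyte markers averaged 9.55 to 9.72 on dendritic arrays and 7.64 to 7.66 on cell body arrays, and in CA1 they averaged 9.52 to 9.55 on dendritic arrays and 7.49 to 7.54 on cell body arrays. All 5 CA2 neuron markers were higher in the CA2 than in the CA1 cell body layer. The part of these cells in the results below was not tested. The oocyte marker list averaged 7.30 and 7.19 on CA2 dendritic arrays 2 and 3 and 7.17 on CA2 cell body array 1, against 5.12 to 5.62 on the other 9 arrays. The main CA2 results are therefore also given without those 3 arrays, which leaves 1 dendritic and 2 cell body arrays in CA2 and assumes that the lone array varies like the other groups. All CA2 arrays carry one run number and all CA1 arrays another, and so field and run cannot be told apart.

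The first question was whether these nuclear RNAs read lower in the dendritic layer than in the layer of pyramidal cell bodies. Their median difference was near 0 in each field, single members moved strongly in either direction, and most did not pass the test. In CA2, 13 of the 68 members were called between the dendritic and the cell body layer, 7 higher and 6 lower, or 19.1%, against 34.0% of all genes tested (16.2% higher, 17.8% lower). In CA1, 19 members passed, with 10 above and 9 below their cell body level, or 27.9% against 46.9% of all genes (28.3% higher, 18.5% lower). A call is an adjusted p under 0.05 in limma, fitted to all genes at once with the mouse number as a block. The median difference of the members, dendritic minus cell body layer, was 0.018 in CA2 and -0.040 in CA1, and that of all genes was -0.027 in CA2 and 0.12 in CA1. Without the 3 oocyte-marked arrays, 6 members were higher and 2 lower in CA2, while the share of all genes called there was 18.9%. The number called lower in CA2 also fell to 3 without either CA2 dendritic array 3 or CA2 cell body array 3. In CA1 the number called higher was 6 without CA1 cell body array 2, and the number called lower was 14 without CA1 dendritic array 3.

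The dendritic and cell body arrays did not overlap for 15 of the 68 members in CA2, where 47.3% of all genes were without overlap, and for 20 members in CA1, where the share of all genes was 55.1%. Arrays of a group were less alike for these small features than for other genes. The median standard deviation among the 3 arrays of a group, pooled over groups, was 0.284 for the members and 0.115 for genes of like signal, and 67 of the 68 members lay above the median of their own signal class. The members' median was 0.259 in the CA2 dendritic layer and 0.180 in the CA2 cell body layer, and 0.307 in the CA1 dendritic layer against 0.208 in the CA1 cell body layer. Between 10 and 21 members per array read above the highest feature of the antigenomic background set and 0 read below its lowest one. That highest feature read between 7.29 and 7.97, above the median of the genes tested on every array. Most members therefore read within the background range, among them called ones such as Snora41 and Snord123.

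**Figure D1:**
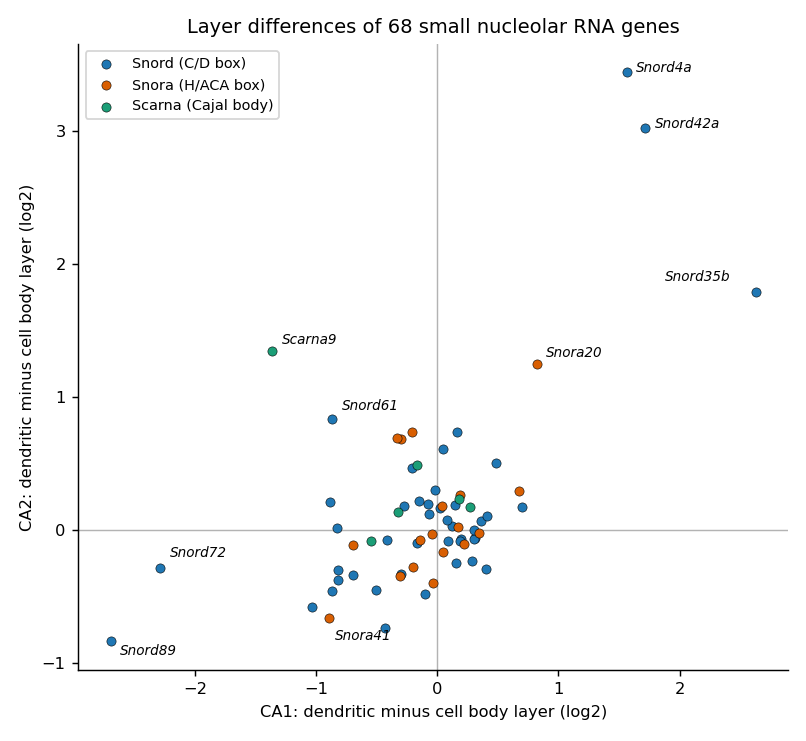
Each point is 1 of the 68 genes, placed by its difference between dendritic and cell body layer in CA1 (horizontal, log2) and in CA2 (vertical, log2), coloured by class. Most points lie near 0 on both axes, Snord4a, Snord42a and Snord35b stand at the upper right, Snord89 at the lower left, and Scarna9 is positive in CA2 and negative in CA1.

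The C/D box RNAs Snord4a, Snord42a and Snord35b were higher in the dendritic layer of both fields. Snord4a, which lies within Rpl23a, a gene for a protein of the large ribosomal subunit, read 9.33, 9.57 and 8.97 in the CA2 dendritic layer and 5.73, 6.08 and 5.75 in the CA2 cell body layer. It read 8.36, 8.23 and 8.61 in the CA1 dendritic layer against 6.77, 6.83 and 6.91 in the CA1 cell body layer. Every dendritic array stood above every cell body array of its field. The difference was 3.44 ± 0.15 in CA2 (SE, limma adjusted p = 8.37e-08) and 1.56 ± 0.15 in CA1 (adjusted p = 1.75e-05).

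Snord42a, a second C/D box RNA within Rpl23a, read 9.67, 8.76 and 9.42 in the CA2 dendritic layer against 5.97, 7.23 and 5.60 in the CA2 cell body layer. In CA1 it read 8.01, 7.58 and 7.45 in the dendritic layer against 6.68, 5.45 and 5.77 in the cell body layer. The groups did not overlap in either field, although CA2 cell body array 2 and CA1 cell body array 1 read well above their partners. The difference was 3.02 ± 0.40 in CA2 (adjusted p = 0.000154) and 1.71 ± 0.40 in CA1 (adjusted p = 0.00535).

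Snord35b read 7.58, 7.88 and 7.27 in the CA2 dendritic layer and 5.78, 6.19 and 5.39 in the CA2 cell body layer. It read 8.68, 8.25 and 9.09 in the CA1 dendritic layer against 6.02, 5.83 and 6.27 in the CA1 cell body layer. The groups were again apart in both fields, with differences of 1.79 ± 0.26 in CA2 (adjusted p = 0.000285) and 2.63 ± 0.26 in CA1 (adjusted p = 1.81e-05). These 3 calls held in both fields under all 25 alternative settings. Without the 3 oocyte-marked arrays the CA2 differences were 3.50 for Snord4a (adjusted p = 0.000292), 2.47 for Snord42a (adjusted p = 0.0307) and 1.80 for Snord35b (adjusted p = 0.0444).

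In both fields 4 members were lower in dendritic pieces: Snord89, Snora41, Snord91a and Snord14a. Snord89, a C/D box RNA that lies within no gene of the RefSeq table, read 8.11, 7.90 and 8.09 in the CA2 dendritic layer against 8.49, 8.67 and 9.45 in the CA2 cell body layer. In CA1 it read 7.14, 6.45 and 7.01 in the dendritic layer against 9.54, 9.13 and 10.03 in the cell body layer. The layers were apart in both fields and the gap was wider in CA1. The difference was -0.84 ± 0.19 in CA2 (adjusted p = 0.00511) and -2.70 ± 0.19 in CA1 (adjusted p = 1.81e-06). The CA2 call was lost without mouse 3 (-0.58, adjusted p = 0.0673) and was kept without the 3 oocyte-marked arrays (-1.14, adjusted p = 0.0103).

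Snora41, an H/ACA box RNA within Eef1b2, which encodes a subunit of a translation elongation factor, read 5.24, 5.42 and 5.48 in the CA2 dendritic layer against 6.01, 5.73 and 6.39 in the CA2 cell body layer. In CA1 it read 5.61, 5.73 and 5.75 in the dendritic layer against 6.77, 6.52 and 6.49 in the cell body layer. No dendritic array reached a cell body array of its field. The differences were -0.66 ± 0.14 in CA2 (adjusted p = 0.00337) and -0.90 ± 0.14 in CA1 (adjusted p = 0.000417), and the CA2 call was lost without the 3 oocyte-marked arrays (-0.89, adjusted p = 0.0692).

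Snord91a, whose position lies within both Tsr1 and Srr, read 8.07, 7.89 and 7.81 in the CA2 dendritic layer against 8.75, 8.61 and 8.63 in the CA2 cell body layer, a difference of -0.74 ± 0.11 (adjusted p = 0.000424). In CA1 it read 8.76, 9.15 and 9.12 in the dendritic layer against 9.36, 9.50 and 9.46 in the cell body layer, a difference of -0.43 ± 0.11 (adjusted p = 0.0104). The groups were apart in both fields. The CA2 call was lost without the 3 oocyte-marked arrays (-0.30, adjusted p = 0.222), and the CA1 call was lost after quantile normalization (-0.28, adjusted p = 0.0550).

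Snord14a, a copy of the U14 RNA that takes part in processing of the small ribosomal subunit's RNA, had the largest p-values of the 4. Within Rps13, it read 5.82, 5.32 and 6.13 in the CA2 dendritic layer against 6.32, 5.79 and 6.51 in the CA2 cell body layer, and 6.07, 5.40 and 6.03 in the CA1 dendritic layer against 6.11, 6.37 and 6.54 in the CA1 cell body layer. The CA2 groups overlapped, and array 2 was the lowest of both dendritic groups. The differences were -0.45 ± 0.15 in CA2 (adjusted p = 0.0414) and -0.51 ± 0.15 in CA1 (adjusted p = 0.0193). Without the mouse block the adjusted p was 0.185 in CA2 and 0.0978 in CA1. The CA2 value was -0.34 (adjusted p = 0.545) when the 3 oocyte-marked arrays were left out.

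**Figure D2:**
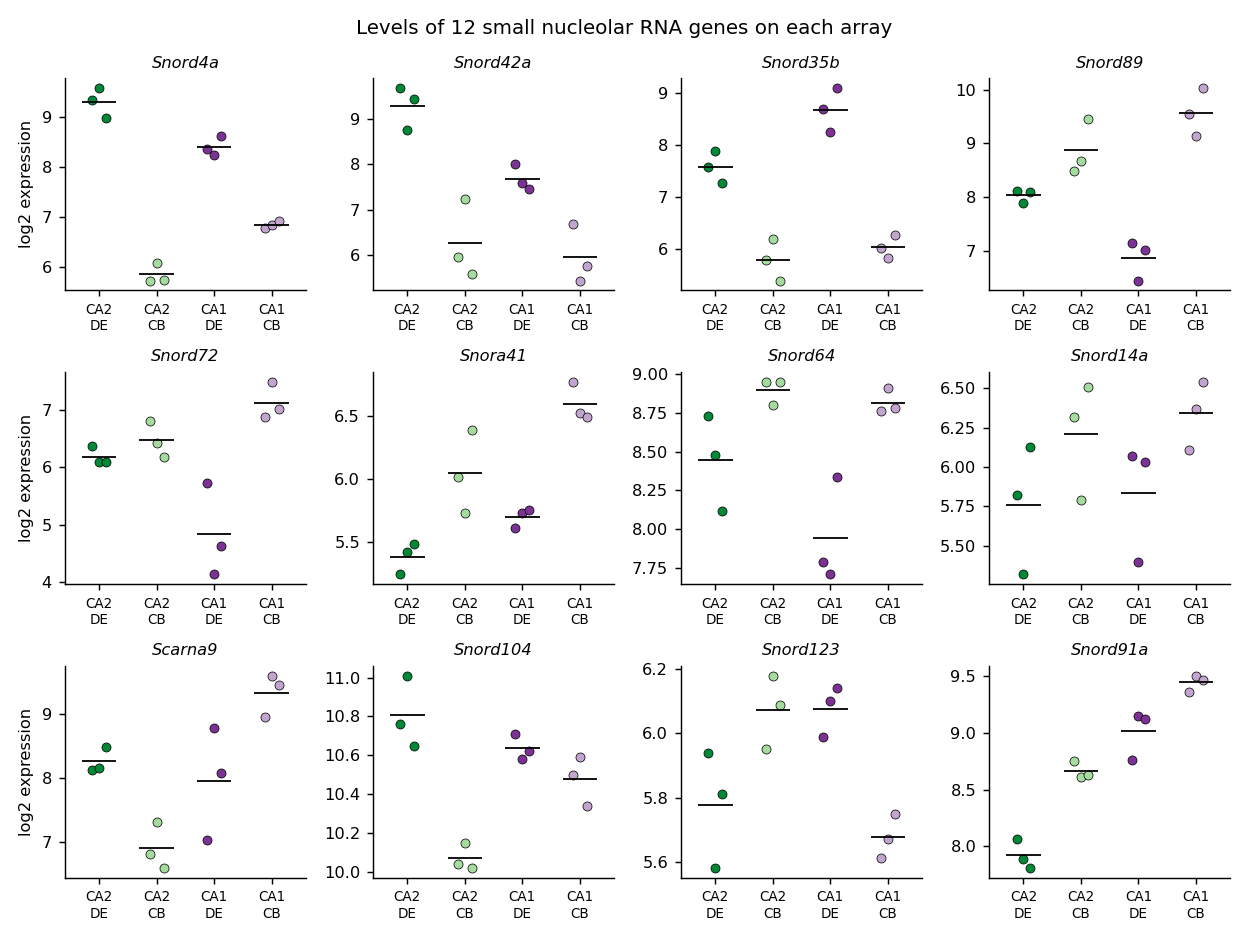
Log2 expression of 12 genes on each of the 12 arrays (points), with the mean of each group as a line, for the dendritic (DE) and cell body (CB) layers of CA2 and CA1; each panel has its own vertical axis, which does not start at 0. For Snord4a, Snord42a and Snord35b the 3 dendritic points stand above the 3 cell body points in both fields, and for Scarna9 they stand above in CA2 and below in CA1.

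Across all genes 24.6% were called in the same direction in both fields and 1.17% in opposite directions. Among the members 7 of 68 were called in the same direction, 3 higher and 4 lower, and 2 in opposite directions. Over the 68 members the CA2 and CA1 differences correlated with a Pearson r of 0.573 and a Spearman rho of 0.384, as a description across genes that share their arrays. Leaving out Snord4a, Snord42a and Snord35b, a choice made after their values were seen, the Pearson r was 0.292 over 65 members. Over all genes it was 0.777.

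The 2 members called in opposite directions were Scarna9 and Snord123. Scarna9, a Cajal body RNA that guides modification of the U2 small nuclear RNA, read 8.13, 8.16 and 8.48 in the CA2 dendritic layer against 6.82, 7.31 and 6.60 in the CA2 cell body layer. It read 7.03, 8.78 and 8.07 in the CA1 dendritic layer against 8.95, 9.59 and 9.44 in the CA1 cell body layer. The dendritic arrays were thus all above the cell body arrays in CA2 and all below them in CA1, with CA1 dendritic array 1 far under its partners. The difference was 1.35 ± 0.27 in CA2 (adjusted p = 0.00255) and -1.37 ± 0.27 in CA1 (adjusted p = 0.00206). The CA2 call was lost without mouse 3 (1.08, adjusted p = 0.0659), and the difference was 2.15 (adjusted p = 0.00556) without the 3 oocyte-marked arrays.

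Snord123, a C/D box RNA within the non-coding host gene Snhg18, moved less. It read 5.94, 5.58 and 5.81 in the CA2 dendritic layer against 5.95, 6.18 and 6.09 in the CA2 cell body layer, and 5.99, 6.10 and 6.14 in the CA1 dendritic layer against 5.61, 5.67 and 5.75 in the CA1 cell body layer. The CA2 groups all but touch, at 5.94 and 5.95, and the CA1 groups are apart. The difference was -0.30 ± 0.10 in CA2 (adjusted p = 0.0405) and 0.40 ± 0.10 in CA1 (adjusted p = 0.00767). Without the 3 oocyte-marked arrays the CA2 value was -0.08 (adjusted p = 0.758), and the CA1 call was lost without mouse 3 (0.41, adjusted p = 0.0611).

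The difference between the fields was tested directly as the layer difference in CA2 minus that in CA1, a contrast in which any shift between runs that is equal in both layers cancels. It was called for 6 of the 68 members, or 8.82% against 11.6% of all genes, with 5 positive (4.81% of all genes) and 1 negative (6.81%). Scarna9 had the widest contrast, 2.71 ± 0.38 (adjusted p = 0.00211), followed by Snord72 at 2.00 ± 0.42 (adjusted p = 0.0147), Snord4a at 1.87 ± 0.21 (adjusted p = 0.000666) and Snord89 at 1.86 ± 0.26 (adjusted p = 0.00224). Snord104 at 0.58 ± 0.12 (adjusted p = 0.0130) and Snord123 at -0.70 ± 0.14 (adjusted p = 0.0124) were smaller. The contrasts of Scarna9, Snord4a and Snord89 were called in all 24 alternatives. Without the 3 oocyte-marked arrays those of Snord72 (1.88, adjusted p = 0.199), Snord104 (0.44, adjusted p = 0.191) and Snord123 (-0.48, adjusted p = 0.132) were no longer called.

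Snord72, a C/D box RNA within the ribosomal protein gene Rpl37, was called in CA1 and not in CA2. It read 6.38, 6.09 and 6.09 in the CA2 dendritic layer against 6.81, 6.42 and 6.19 in the CA2 cell body layer. It read 5.73, 4.14 and 4.63 in the CA1 dendritic layer against 6.87, 7.49 and 7.01 in the CA1 cell body layer. The CA2 groups overlapped, and the CA1 groups were apart with a wide spread in the dendritic layer. The difference was -0.29 ± 0.29 in CA2 (adjusted p = 0.535) and -2.29 ± 0.29 in CA1 (adjusted p = 0.000120).

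Snord104 was called in CA2 and not in CA1. It read 10.76, 11.01 and 10.65 in the CA2 dendritic layer against 10.04, 10.15 and 10.02 in the CA2 cell body layer, and 10.71, 10.58 and 10.62 in the CA1 dendritic layer against 10.50, 10.59 and 10.34 in the CA1 cell body layer. The CA2 groups were apart and the CA1 groups overlapped. The difference was 0.74 ± 0.08 in CA2 (adjusted p = 4.90e-05, and 0.0283 at a difference of 0.60 without the 3 oocyte-marked arrays) and 0.16 ± 0.08 in CA1 (adjusted p = 0.133).

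The remaining CA2 calls were those of Snora20, Snora69 and Snord66. Snora20, within the chaperonin gene Tcp1, read 5.31, 6.44 and 6.12 in the CA2 dendritic layer against 4.70, 4.62 and 4.80 in the CA2 cell body layer, a difference of 1.25 ± 0.34 (adjusted p = 0.0142). Snora69, within Rpl39, read 5.74, 5.57 and 5.71 in the CA2 dendritic layer against 5.25, 4.54 and 5.03 in the CA2 cell body layer, a difference of 0.73 ± 0.20 (adjusted p = 0.0167). Snord66, within the translation initiation gene Eif4g1, read 5.92, 5.41 and 5.71 in the CA2 dendritic layer against 6.05, 5.98 and 6.45 in the CA2 cell body layer, a difference of -0.48 ± 0.13 (adjusted p = 0.0173). The groups did not overlap for any of the 3. All 3 calls were lost without the 3 oocyte-marked arrays, with differences of 1.08 for Snora20 (adjusted p = 0.344), 0.94 for Snora69 (adjusted p = 0.174) and -0.21 for Snord66 (adjusted p = 0.597). They were also lost when 1 array was left out: CA2 cell body array 2 or CA2 dendritic array 2 or 3 for each of them (adjusted p between 0.0525 and 0.0936), and CA2 cell body array 3 for Snord66 (adjusted p = 0.0814).

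In CA1, 3 further members were lower in the dendritic layer. Snora31, within Tpt1, read 7.63, 7.33 and 7.77 in the CA1 dendritic layer against 8.07, 8.15 and 8.61 in the CA1 cell body layer, a difference of -0.70 ± 0.17 (adjusted p = 0.00613). Snord14e, another U14 copy, within the heat shock gene Hspa8, read 8.98, 8.63 and 9.33 in the CA1 dendritic layer against 9.70, 9.70 and 9.64 in the CA1 cell body layer, a difference of -0.70 ± 0.17 (adjusted p = 0.00679). Both were apart in CA1 and not called in CA2, where the differences were -0.12 for Snora31 and -0.34 for Snord14e. The call of Snora31 held under all 25 alternatives, and that of Snord14e was lost without mouse 2 (-0.52, adjusted p = 0.0999).

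The other was Snord64, which lies within Snhg14, the long host transcript of the imprinted Prader-Willi locus that is strongly expressed in neurons. It read 8.73, 8.48 and 8.12 in the CA2 dendritic layer against 8.95, 8.80 and 8.95 in the CA2 cell body layer, a difference of -0.46 ± 0.18 that was not called (adjusted p = 0.0766). It read 7.79, 7.71 and 8.34 in the CA1 dendritic layer against 8.76, 8.91 and 8.78 in the CA1 cell body layer, a difference of -0.87 ± 0.18 (adjusted p = 0.00263). The layers were apart in both fields. The CA1 call was lost without mouse 2 (-0.71, adjusted p = 0.0573). Its host Snhg14 was also lower, at -0.58 ± 0.14 in CA2 (adjusted p = 0.00672) and -0.85 ± 0.14 in CA1 (adjusted p = 0.000550). The CA2 value of Snhg14 was -0.063 (adjusted p = 0.842) with the 3 oocyte-marked arrays left out.

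The other 7 members called higher in the CA1 dendritic layer had differences between 0.31 and 0.70. Snord85 led them at 0.70 ± 0.22 (adjusted p = 0.0260), followed by Snora7a, within Rpl32, at 0.67 ± 0.24 (adjusted p = 0.0446), Snord93 at 0.41 ± 0.11 (adjusted p = 0.0101) and Snord123 at the value given above. Snord15a, within Rps3, was at 0.36 ± 0.09 (adjusted p = 0.0105) and Snora78 at 0.34 ± 0.12 (adjusted p = 0.0437). Snord23, named because it completes the count and chosen after its values were seen, was at 0.31 ± 0.09 (adjusted p = 0.0180). Each of the 7 calls was lost under at least 1 alternative. Without CA1 cell body array 2, for example, the adjusted p was 0.121 for Snord85, 0.0818 for Snora7a, 0.0584 for Snord93 and 0.155 for Snora78, and without CA1 cell body array 1 it was 0.0608 for Snord15a and 0.0714 for Snord23.

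By class, Snord RNAs had 9 of 44 members called in CA2 (4 higher, 5 lower), where 34.0% of all genes and 28.9% of genes of like signal were called, and 14 in CA1 (8 higher, 6 lower), where these shares were 46.9% and 42.8%. Snora RNAs had 3 of 18 called in CA2 (2 higher, 1 lower), against 31.6% of genes of like signal, and 4 in CA1 (2 in each direction), against 44.2%. With the 3 oocyte-marked arrays left out, the CA2 calls were 7 Snord (5 higher, 2 lower) and 1 Scarna. Of the 6 Scarna RNAs, Scarna9 alone was called, in both fields. The median difference of the 6 was 0.20 in CA2 and -0.25 in CA1. Of the other 5, Scarna17 was at 0.49 in CA2 (adjusted p = 0.0659) and -0.17 in CA1 (adjusted p = 0.457), Scarna10 at 0.14 in CA2 and -0.32 in CA1, Scarna6 at -0.080 in CA2 and -0.55 in CA1, Scarna8 at 0.23 in CA2 and 0.18 in CA1, and Scarna2 at 0.17 in CA2 and 0.27 in CA1. Scarna8 is named because it completes the class and was chosen after its values were seen. Snord118, the U8 RNA needed for maturation of the large subunit's RNA, differed by -0.067 ± 0.22 in CA2 and 0.20 ± 0.22 in CA1, and Snord13, the U13 RNA, by -0.073 ± 0.18 in CA2 and -0.41 ± 0.18 in CA1, with no call. Snora73b, a copy of the U17 RNA that acts in cleavage of the ribosomal precursor, differed by -0.35 ± 0.21 in CA2 and -0.31 ± 0.21 in CA1, without a call. These 3 genes and Snord58b have 2 features each, and the second features were not called either.

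The members were also set beside genes of like mean signal, using 10 classes with equal numbers of genes. In CA2, 38 members lay above and 30 below the median of their class, with a median offset of 0.064. In CA1, 28 lay above and 40 below, with a median offset of -0.16. Beyond the upper quartile of their class were 25 members in CA2 and 16 in CA1, and beyond the lower quartile were 17 in CA2 and 33 in CA1. Weighted to the members' classes, 30.3% of genes of like signal were called in CA2 and 43.7% in CA1. The spread within groups of the members was given above, and its part in the lower share of calls was not tested. Signal depends on a feature's probes, so a class holds genes of like brightness and not of like abundance.

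**Figure D3:**
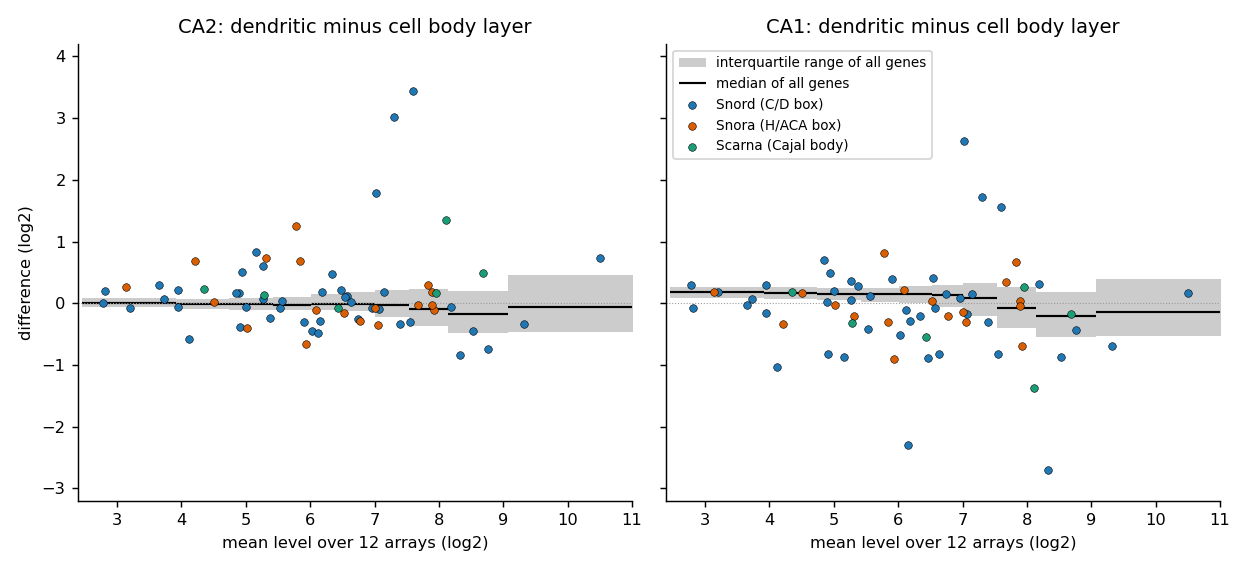
Difference between dendritic and cell body layer (log2, vertical) of each of the 68 genes against its mean log2 signal over 12 arrays (horizontal), in CA2 and CA1. The black lines give the median of all genes of the same signal class and the grey boxes their interquartile range. The points scatter to both sides of the boxes in each field, with 25 of 68 above and 17 below the boxes in CA2, and 16 above and 33 below in CA1.

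Because most of these RNAs come from introns, each member was set beside the gene that contains its position in the RefSeq mouse table. Of the 68 members, 58 lie within 1 gene, 6 within 2 and 4 within none. The annotated RNAs span 28 to 248 nucleotides (median 77.5), and a probe in them reads the mature RNA and unspliced host transcript alike. Among the members within 1 gene, a host feature was measured for 51 members in 45 hosts. Members within 2 genes were left out of this comparison. Member and host differed in the same direction for 22 of 51 in CA2 and 31 of 51 in CA1. The Pearson r over these pairs was 0.184 in CA2 and 0.286 in CA1, as a description across genes on shared arrays. The Spearman rho was -0.0026 in CA2 and 0.344 in CA1. For the 31 members whose host has a feature of its own, the Pearson r was -0.162 in CA2 and 0.290 in CA1. Of these, 9 in CA2 and 19 in CA1 differed in the same direction as their host.

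Among the hosts of members within 1 gene, all 13 measured ribosomal protein hosts were called higher in the dendritic layer in both fields. Their median difference was 0.59 in CA2 and 0.53 in CA1. With the 3 oocyte-marked arrays left out, 8 of the 13 hosts were called in CA2, all higher, with a median of 0.65. The 15 members inside them had a median difference of 0.033 in CA2, with 3 higher and 1 lower, and of 0.050 in CA1, with 4 higher and 2 lower. Snora62, within Rpsa, differed by -0.16 in CA2 and 0.043 in CA1 without a call. The RNA of Rpsa itself, which encodes a protein of the small subunit, differed by 1.10 ± 0.07 in CA2 and 1.31 ± 0.07 in CA1. Snord37, within the elongation factor gene Eef2, differed by -0.067 in CA2 and 0.30 in CA1 without a call, while Eef2 was higher by 1.02 ± 0.07 in CA2 and 1.45 ± 0.07 in CA1. Snora62 and Snord37 were chosen after their values were seen. Rpl37 was higher by 0.67 ± 0.07 in CA2 and 0.53 ± 0.07 in CA1, where its member Snord72 fell by 2.29 on the log2 scale.

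Rpl23a, the host of Snord4a and Snord42a, averaged 12.58 ± 0.10 in the CA2 dendritic layer and 11.78 ± 0.10 in the CA2 cell body layer, and 12.70 ± 0.08 in the CA1 dendritic layer against 11.91 ± 0.07 in the CA1 cell body layer (SD, 3 arrays each). The host's difference was 0.80 ± 0.09 in CA2 and 0.79 ± 0.09 in CA1, and the values of Snord4a and Snord42a are given above. These are differences of separate probes, and their sizes were not tested against each other. Its feature also carries other symbols, so it is no member of the table of single-symbol genes and was tested among all features. Cep295, the host of Scarna9, was lower in both fields, at -0.27 ± 0.08 in CA2 (adjusted p = 0.0214) and -0.60 ± 0.08 in CA1 (adjusted p = 0.000122), while Scarna9 was called higher in CA2. Snhg18, the host of Snord123, was higher in both fields, by 0.70 ± 0.14 in CA2 (adjusted p = 0.00239) and 1.02 ± 0.14 in CA1 (adjusted p = 0.000171). Neither host was called in CA2 with the 3 oocyte-marked arrays left out, at -0.36 for Cep295 (adjusted p = 0.167) and 0.47 for Snhg18 (adjusted p = 0.156).

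**Figure D4:**
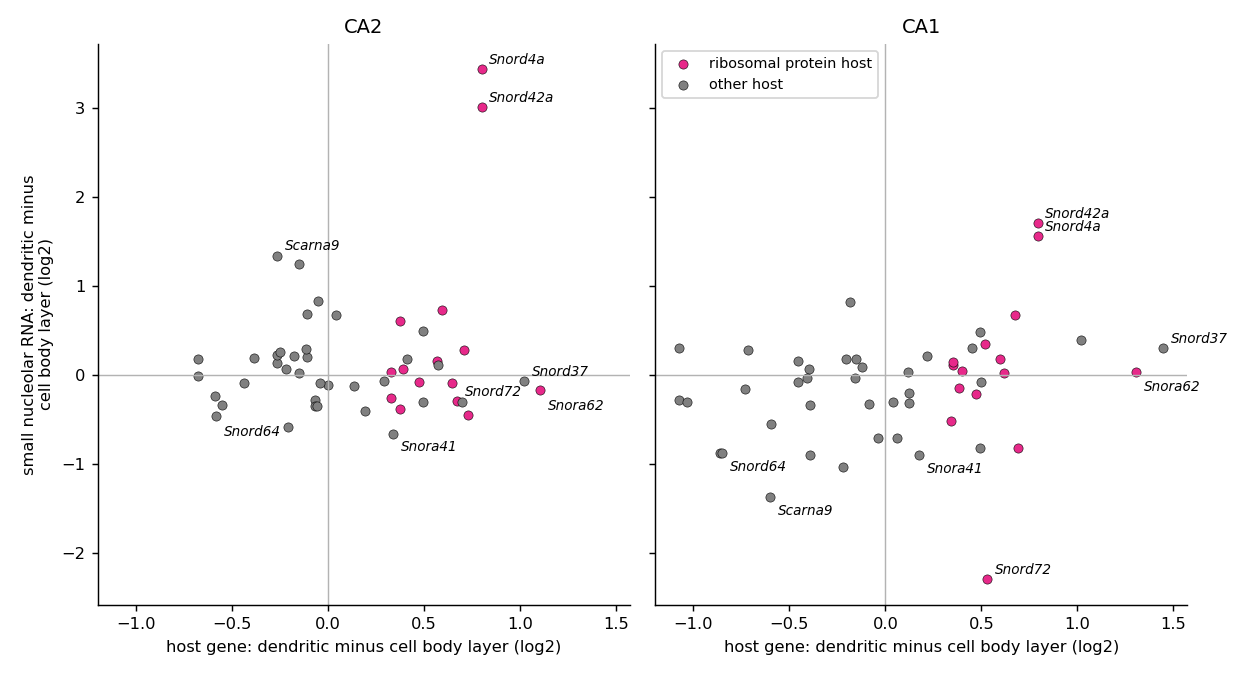
Difference between dendritic and cell body layer of each small nucleolar RNA (vertical, log2) against that of its host gene (horizontal, log2) in CA2 and CA1, for the 51 members with 1 measured host; hosts that encode ribosomal proteins are pink. All pink points lie right of 0, while their members lie on both sides of 0 on the vertical axis, with Snord4a and Snord42a at the top.

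The genes for the protein partners of these RNAs were read on the same arrays, as RNA levels and not as protein. In this paragraph the name of a protein stands for the RNA of its gene. Of the 4 core proteins of H/ACA particles, Nhp2 was lower in the dendritic layer in CA2 (-0.54 ± 0.09, adjusted p = 0.000743), and Nhp2 (-0.44 ± 0.09), Nop10 (-0.34 ± 0.08) and the pseudouridine synthase Dkc1 (-0.74 ± 0.13) were lower in CA1. Of the C/D core proteins, Nop56 was read on a feature shared with other symbols and was tested among all features. It was lower, at -0.59 ± 0.08 in CA2 (limma adjusted p = 0.00117) and -0.72 ± 0.08 in CA1 (adjusted p = 0.000320). Its CA2 value was -0.625 without the 3 oocyte-marked arrays, a fit that leaves 1 CA2 dendritic array, and it was not called there. Another 2 had a feature of their own. Nop58 was lower, at -0.68 ± 0.11 in CA2 (adjusted p = 0.000501) and -1.07 ± 0.11 in CA1 (adjusted p = 1.96e-05), and the methyltransferase Fbl differed by -0.13 in CA2 and -0.10 in CA1 without a call. Of 18 measured genes for assembly and nucleolar or Cajal body proteins, 10 were lower and 0 higher in each field. Among all genes 17.8% were lower in CA2 and 18.5% in CA1. The median differences of the 18 were -0.28 in CA2 and -0.33 in CA1. The assembly ATPase Ruvbl1 was lower, at -1.09 ± 0.19 in CA2 and -1.51 ± 0.19 in CA1, and the nucleolar protein Nolc1 at -0.83 ± 0.09 in CA2 and -0.97 ± 0.09 in CA1. With the 3 oocyte-marked arrays left out, 6 of the 18 were called in CA2, all lower, with Ruvbl1 and Nolc1 among them. Nhp2 was then at -0.75 (adjusted p = 0.0200), and Nop58 was no longer called, at -0.38 (adjusted p = 0.229).

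The array also holds 924 other genes that RefSeq annotates as small nucleolar or guide RNAs under other symbols. Of these, 169 lie inside Snhg14 on chromosome 7, a group defined by position after its values were seen. All 169 were lower in the CA1 dendritic layer (median difference -1.90), and 152 were lower in CA2 (median -1.53), with 0 higher in either field. With the 3 oocyte-marked arrays left out, 106 were lower in CA2, with a median of -1.02. Of these genes 128 are 79 nucleotides and 34 are 94 nucleotides long, and they show only 77 distinct value profiles, so many are copies that share probes and are not independent. Their median level was 7.43, 7.38 and 7.80 in the CA2 dendritic layer against 9.22, 8.89 and 9.09 in the CA2 cell body layer, and 7.68, 7.96 and 8.40 in the CA1 dendritic layer against 9.98, 10.22 and 9.96 in the CA1 cell body layer. No dendritic median reached a cell body median of its field. The 755 such genes elsewhere had 39 higher and 21 lower in CA2 and 121 higher and 60 lower in CA1, with medians of 0.077 in CA2 and 0.13 in CA1. These calls were 7.95% of the 755 in CA2 and 24.0% in CA1. The shares were 18.7% in CA2 and 35.6% in CA1 for genes of like signal, and 34.0% and 46.9% for all genes.

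**Figure D5:**
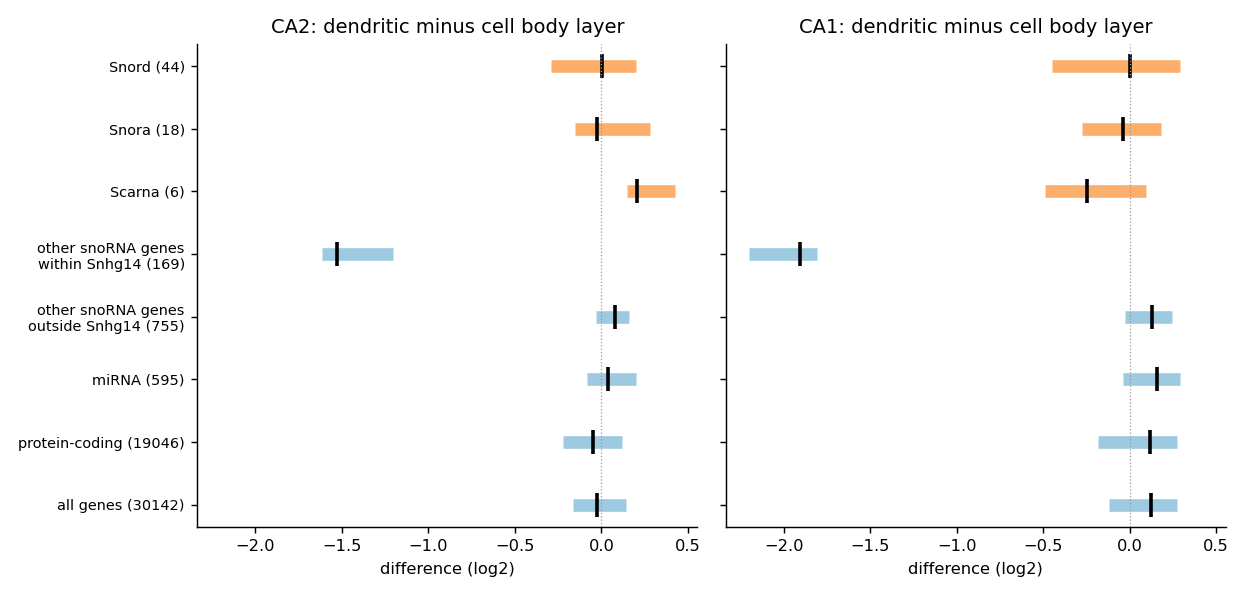
Median (black mark) and interquartile range (bar) of the difference between dendritic and cell body layer (log2) in CA2 and CA1 for the 3 classes of members (orange) and for other gene groups (blue), with the number of genes in brackets. The 169 other small nucleolar RNA genes inside Snhg14 lie at -1.53 in CA2 and -1.90 in CA1, and the medians of the remaining groups lie between -0.25 and 0.20.

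Between the fields, members read lower in CA2 more often than higher in the cell body layer, although field and run cannot be separated here. There, 17 of 68 members were called, against 21.1% of all genes, with 16 lower (10.5% of all genes) and 1, Snord123, higher (10.6%) in CA2. The fields' cell body arrays did not overlap for 29 members, against 43.7% of all genes. The median difference, CA2 minus CA1, was -0.20 for the members and 0.017 for all genes. Other small RNA genes had a like balance, with 312 lower and 2 higher of 924 other small nucleolar RNA genes, 371 lower and 12 higher of 914 small nuclear RNA genes and 93 lower and 15 higher of 595 microRNA genes. Of the 924, the 169 inside Snhg14, many of them copies that share probes, had 94.1% called, and the 755 elsewhere had 20.5%. Among the members lower in CA2 were 4 of the 6 Scarna RNAs: Scarna9 (-2.42, adjusted p = 0.000153), Scarna17 (-1.18, adjusted p = 0.00123), Scarna10 (-1.13, adjusted p = 0.00288) and Scarna6 (-1.03, adjusted p = 0.0103). The first 3 calls held in every alternative, and that of Scarna6 was lost without the 3 oocyte-marked arrays (adjusted p = 0.0860) and without any single one of CA2 cell body arrays 1 and 3 and CA1 cell body arrays 1 and 3 (adjusted p between 0.0508 and 0.0592). The number called lower was 8 without CA1 cell body array 1, 10 without CA1 cell body array 3, and 9 without either CA2 cell body array 2 or CA2 cell body array 3.

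In the dendritic layer 17 members were called, against 30.2% of all genes, with 7 higher (11.6% of all genes) and 10 lower (18.6%) in CA2. The fields' dendritic arrays did not overlap for 21 members, against 41.0% of all genes. Snord91a was lower in CA2 in both layers, at -0.78 in the cell body layer (adjusted p = 0.000813) and -1.09 in the dendritic layer (adjusted p = 0.000196). Snord4a was higher in the CA2 dendritic layer by 0.89 (adjusted p = 0.00247) and lower in the CA2 cell body layer, at -0.98 (adjusted p = 0.00122). Snord89 was higher in the CA2 dendritic layer by 1.17 (adjusted p = 0.00178). Without the 3 oocyte-marked arrays, 3 members were higher and 2 lower in the CA2 dendritic layer, while 6.36% of all genes were called.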

How the data were processed

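The authors deposited log2 expression values made by RMA, per the submitters' processing notes, with software version and genome build not given in the sources used here. The table has 72688 features, 30604 of them with 1 symbol in the platform annotation. The 30142 genes (highest mean feature per symbol) were fitted with limma 3.58.1 in R 4.3.3, with 4 group means, the replicate number as a block and Benjamini-Hochberg adjustment over all genes; the procedure was tested on simulated data. The labels' protocols take 4 pieces from each of 3 mice, so equal numbers were read as 1 mouse, which no label states. Deviations of same-numbered arrays correlated between -0.346 and 0.132 (18 pairs, 1 above 0.1). The highest correlation between arrays of different groups and numbers was 0.251, so the values show no clear pairing. Whether the arrays of a group vary by mouse or by handling was not separable. The members, lists and tests were chosen with earlier results of these data known. Named are the 8 members with the largest called rise and fall per comparison with 1 sign in all 3 pairs, the 5 brightest per class, members with several features or in imprinted clusters, and comparator lists; others are marked. Hosts come from RefSeq (GRCm38.p6), whose table lacks strand. Alternatives varied the block, arrays, weights, scaling, filter, features and moderation.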

Additional observations from a re-analysis of the deposited data

Results flagged for a closer look

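The 6 members below were listed because their difference between dendritic and cell body layer differed between CA2 and CA1 in a test of that contrast (limma, adjusted over all genes). The contrast, CA2 minus CA1, was 2.71 for Scarna9 (1.35 in CA2 and -1.37 in CA1), 2.00 for Snord72 (-0.29 in CA2 and -2.29 in CA1), 1.87 for Snord4a (3.44 in CA2 and 1.56 in CA1), 1.86 for Snord89 (-0.84 in CA2 and -2.70 in CA1), 0.58 for Snord104 (0.74 in CA2 and 0.16 in CA1) and -0.70 for Snord123 (-0.30 in CA2 and 0.40 in CA1). The share of members called, 8.82%, was below that of all genes, 11.6%. Leaving out mice lost the call with the contrast still of the same sign: Snord104 was at 0.61 without mouse 1 (adjusted p = 0.0905), 0.43 without mouse 2 (adjusted p = 0.128) and 0.69 without mouse 3 (adjusted p = 0.0542). Snord72 was at 1.495 without mouse 2 (adjusted p = 0.0914) and 1.87 without mouse 3 (adjusted p = 0.113), and Snord123 at -0.53 without mouse 2 (adjusted p = 0.123) and -0.71 without mouse 3 (adjusted p = 0.0882). A run effect that differs between layers was not tested.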

How the results depend on the processing

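No called member changed direction under any alternative run, while the members' median, near 0 in each case, changed sign in both layer comparisons and in the dendritic region comparison under settings given here. Without the replicate block, 8 members were higher and 4 lower in CA2 and 9 higher and 9 lower in CA1, and 7 contrasts between the fields were higher and 1 lower; the layer calls lost were Snord14a and Snord66 (adjusted p = 0.0603) in CA2 and Snord14a and Snord15a (adjusted p = 0.0801) in CA1, and the region calls lost were Snora20 (adjusted p = 0.0502) and Snord89 (adjusted p = 0.0838) in the cell body layer and Snord15a (adjusted p = 0.0671) in the dendritic layer. Without the 3 oocyte-marked arrays, 14 members were lower in CA1, 2 lower in CA2, 0 contrasts lower, 3 higher in the CA2 cell body layer, and 3 higher and 2 lower in the CA2 dendritic layer (median -0.17). With only the groups compared, 15 were lower in CA1 and 27 lower in the CA2 cell body layer; that fit cannot be made for the contrast, which needs all 4 groups. The CA2 layer median was -0.031 after quantile normalization and -0.068 for genes at or above the median level. The number higher in the CA2 cell body layer was 4 with array weights, 3 after quantile normalization, 5 after median centring and 2 for genes at or above the median level. The region median was -0.12 (cell body layer) and -0.041 (dendritic layer) after quantile normalization, -0.10 and 0.0050 after median centring, which moved the median of all genes by a like amount (0.017 to 0.12 and -0.11 to -0.0017), and -0.085 in the dendritic layer for genes at or above the median level. With 5 signal classes the members' offset was 0.04 in CA2 and -0.14 in CA1. The comparator lists and hosts without the 3 oocyte-marked arrays were computed after seeing the data.

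When 1 mouse or 1 array was left out, CA1 gave 6 to 11 members higher, 9 to 14 lower and a median of -0.10 to 0.0028. CA2 gave 5 to 9 higher, 3 to 7 lower and a median of -0.012 to 0.080. The contrast gave 4 to 8 higher, 0 to 2 lower and a median of 0.033 to 0.20. The region comparison gave 0 to 3 higher, 8 to 19 lower and a median of -0.26 to -0.18 in the cell body layer, and 5 to 9 higher, 6 to 13 lower and a median of -0.15 to -0.043 in the dendritic layer. Of the called members 8 of 19 in CA1, 4 of 13 in CA2, 3 of 6 contrasts, and 6 of 17 (cell body layer) and 3 of 17 (dendritic layer) region calls were called in every alternative; the cause of the other losses was not tested. Small features with a wide spread between 3 arrays limit the precision.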

Other observations

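Of 595 microRNA genes, 62 were higher and 23 lower in the CA2 dendritic layer (median 0.037), and 133 were higher and 52 lower in the CA1 dendritic layer (median 0.16). These calls were 14.3% of the microRNA genes in CA2 and 31.1% in CA1. The shares were 23.6% in CA2 and 39.5% in CA1 for genes of like signal, and 34.0% and 46.9% for all genes. Genes for the U3 RNA, a C/D box RNA of ribosomal precursor cleavage named under Rnu3, were all called lower in the CA1 dendritic layer: 5 of 5, with a median of -0.46 and Rnu3b1 at 7.44 ± 0.18 in the dendritic layer and 7.91 ± 0.05 in the cell body layer (SD, 3 arrays each). In CA2, 0 of the 5 passed the limma test and 0 had an unadjusted p under 0.05, with a median of -0.11 (Rnu3b1 adjusted p = 0.482), and 3 of these genes hold identical values. Of 9 nuclear long RNAs with a feature of their own, 2 were higher and 3 lower in the CA2 dendritic layer, and 1 was higher and 6 were lower in CA1. Meg3 and Rian were read only on features shared with other symbols and are not among the 9. Their CA1 differences were -1.26 for Meg3 and -1.19 for Rian. Without the 3 oocyte-marked arrays their CA2 differences were -0.50 for Meg3 and -0.38 for Rian, and neither was called there. Snhg11 was lower, at -0.38 ± 0.09 in CA2 and -1.13 ± 0.09 in CA1, and Kcnq1ot1 was at -0.24 ± 0.09 in CA2 (adjusted p = 0.0643) and lower in CA1, at -0.98 ± 0.09. Miat was lower in the dendritic layer, at -0.48 ± 0.09 in CA2 and -0.79 ± 0.09 in CA1, and Neat1 was higher, by 0.88 ± 0.07 in CA2 and 0.84 ± 0.07 in CA1. Malat1 was higher in CA2 (0.34 ± 0.07, adjusted p = 0.00291) and at -0.10 ± 0.07 in CA1 (adjusted p = 0.248). Without CA2 dendritic arrays 2 and 3 and CA2 cell body array 1, on which oocyte markers read high, 1 of the 9 was higher and 1 lower in CA2, with Malat1 at 0.47 (adjusted p = 0.0537). The 3 small nucleolar RNA genes inside Rian, the host transcript of a second imprinted cluster, were all lower in the CA1 dendritic layer, and 1 of the 3 was called in CA2. DQ267102 read 8.65, 7.45 and 7.90 in the CA2 dendritic layer against 9.02, 9.25 and 9.52 in the CA2 cell body layer (-1.26 ± 0.27, adjusted p = 0.00382), and 7.87, 7.36 and 8.70 in the CA1 dendritic layer against 10.31, 9.87 and 10.31 in the CA1 cell body layer (-2.19 ± 0.27, adjusted p = 8.79e-05). AF357426 was lower, at -2.28 ± 0.47 in CA1 (adjusted p = 0.00264), and at -1.20 ± 0.47 in CA2 (adjusted p = 0.0764). Without those 3 CA2 arrays the CA2 call was lost, with DQ267102 at -0.77 (adjusted p = 0.218) and AF357426 at 0.49 (adjusted p = 0.566). These genes were chosen after their values were seen.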
